A study of Mus musculus with 14 samples.

Results

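The genes described here are 10 transcription factors and cofactors of blood stem and progenitor cells, Lmo2, Lyl1, Tal1, Gata2, Mn1, Meis1, Hoxa9, Mycn, Myb and Hlf. Every probe set annotated with one of these symbols was taken, which gave 19 probe sets of the 45101 on the array and 10 of the 18193 genes measured. Where a gene had several probe sets, the one with the highest mean over all arrays represents it, and the others are shown beside it.

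Transcript levels were measured on 14 Affymetrix 3′ expression arrays of mouse (C57Bl6) bone marrow cells in 6 groups, all from adult animals aged 8 to 12 weeks and none given a drug treatment. The tested cells were Pax5KO engrafted cells (3 arrays), made by transplanting Pax5-deficient, λ5 reporter-positive fetal liver of day 15 embryos into sublethally irradiated mice and sorting B220+ λ5+ cells from the marrow after 4 weeks. WT engrafted cells (3 arrays) were made in the same way from wild-type, λ5 reporter-positive fetal liver. The remaining groups came from mice that received no transplant and are Ly6D- common lymphoid progenitors (CLP), Ly6D+ CLP, ProB cells and PreB cells, with 2 arrays each. The gates behind these 4 sorts and the part of Pax5 that was deleted are not given in the sources used here. The engrafted cells passed through an irradiated host and descend from fetal liver, which the other 4 groups did not, so genotype, donor age and transplantation cannot be told apart where Pax5KO cells are set against ProB cells or Ly6D+ CLP. The arrays are labelled as biological replicates, without further statement of how many mice gave each sample. PreB arrays carry the numbers 2 and 3 in their titles, used here, but 1 and 2 in their descriptions.

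Blood stem and multipotent progenitor cells maintain their state through transcription factors that are largely silenced as a lineage is chosen. Lmo2 is an adaptor without a DNA-binding domain of its own that joins the basic helix-loop-helix (bHLH) factors Tal1 and Lyl1, paired with E proteins, to GATA factors. Hoxa9 and Meis1 bind DNA together through their homeodomains. Pax5 holds cells in the B lineage, activating B cell genes and repressing many genes of other lineages.

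All values are log2 array signals, on which a difference of 1 is a doubling, and the table has a lowest value of 2.32 that stands for no measurable signal. A gene within 0.5 of that value on every array of a group is called at the floor there. Between 56.0% and 57.8% of probe sets lay within 0.5 of the lowest value on each array, and array medians spanned 2.41 to 2.52. Signals of different genes come from different probes and were not ranked against each other. Differences were tested with limma on all 14 arrays and adjusted over the 18193 genes, and a gene is said to have risen or fallen only at an adjusted p under 0.05. In sorted populations, fewer cells that express a gene and less RNA per cell cannot be told apart.

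Some properties of the arrays moved with the groups. Pax5 itself, by its brightest probe set, had 7.57 to 7.95 on the arrays labelled Pax5KO, against 6.18 to 6.76 on WT engrafted arrays, so this probe set does not check the label, and whether it lies in the deleted part is not known; every direction below rests on the labels. Ly6d, the antigen that defines the CLP split, read 11.25 and 10.30 in Ly6D+ CLP, against 3.61 and 3.02 in Ly6D- CLP. Igll1, which encodes λ5, read 12.59 to 13.12 in Pax5KO engrafted cells and 11.41 to 12.75 in WT engrafted cells. Xist, expressed in female cells, read at least 10.71 on both ProB arrays, all 3 Pax5KO arrays and WT engrafted array 3, and at most 2.73 on every other array, so sex and group cannot be told apart for ProB cells against either neighbouring stage or for Pax5KO engrafted cells against Ly6D+ CLP. The 3′ minus 5′ signal of actin, which grows as RNA degrades or is copied shorter, was 6.71 to 7.27 on PreB arrays and at most 5.57 elsewhere. It was 3.16, 3.14 and 4.57 in Pax5KO engrafted cells, against 2.51, 2.56 and 3.47 in WT engrafted cells, and that of Gapdh was 3.90, 3.17 and 5.79, against 2.61, 3.02 and 5.44 in WT engrafted cells, so both were higher in Pax5KO cells at each array number. Granulocyte and monocyte transcripts (13 genes measured) differed along the stages, with 11 above the floor in Ly6D- CLP (summed linear signal 6380 to 8769), 6 in Ly6D+ CLP (2068 to 2772), 5 in ProB cells (141 to 153) and 10 in PreB cells (11151 to 17886). Ly6D- CLP array 2 stood apart from array 1 in the mean log2 signal of that list, at 7.64 and 4.95. Of the 8 natural killer cell genes measured, 6 were above the floor on PreB arrays (summed linear signal 2064 to 2934), against 2 on ProB arrays (48.6 to 53.9).

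**Figure D1:**
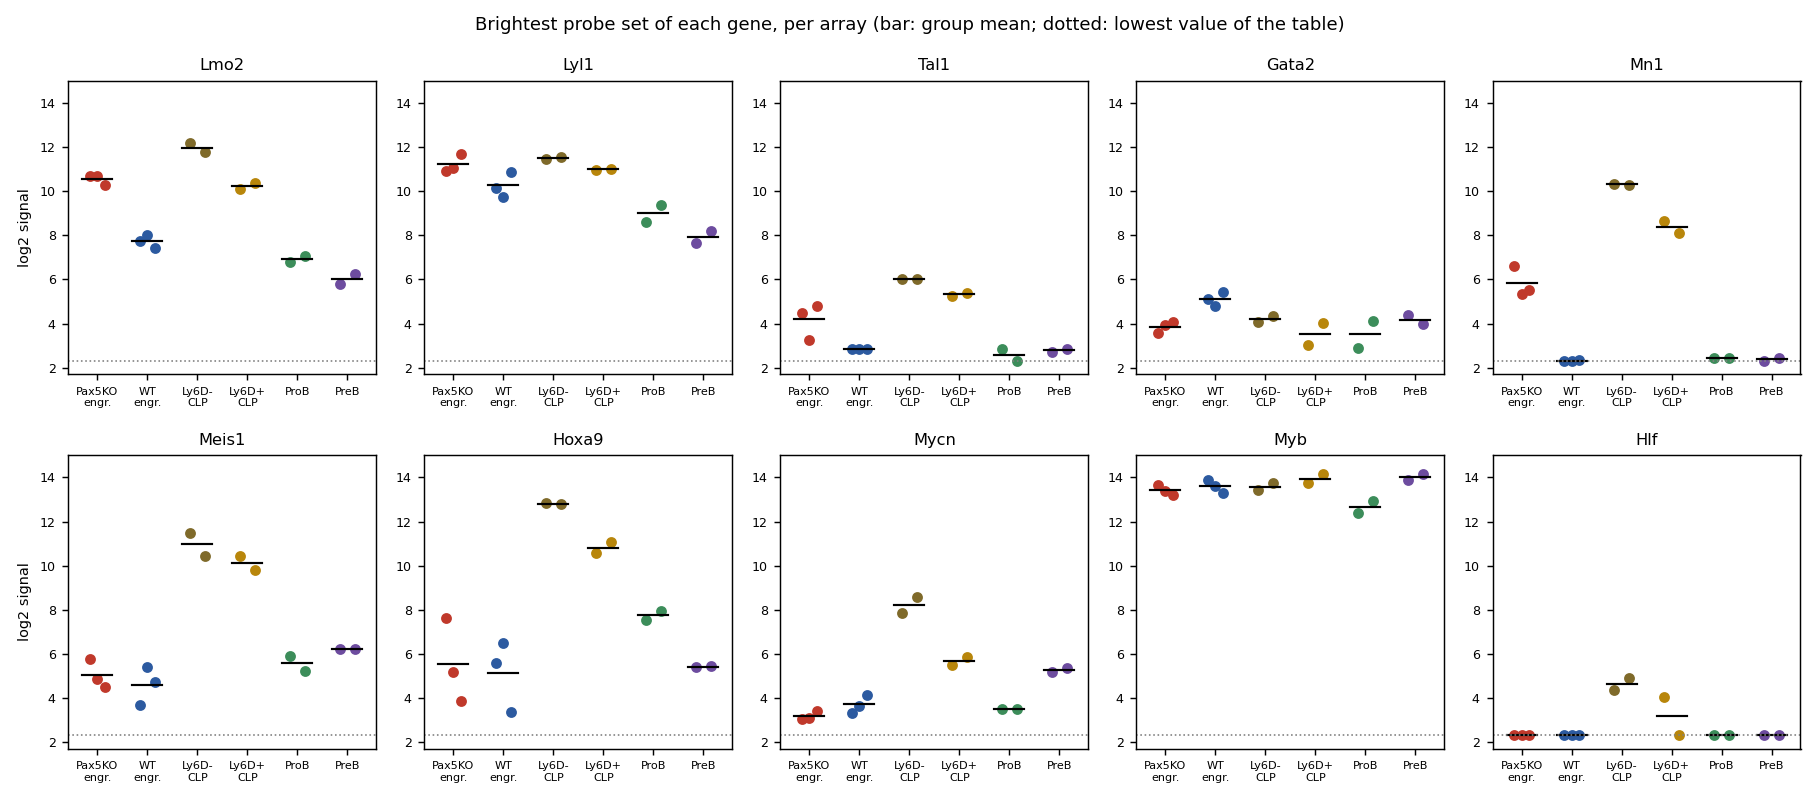
Log2 signal of the brightest probe set of each gene (y axis) on each of the 14 arrays, by group (x axis), with a bar at the group mean and a dotted line at the lowest value of the table. Lmo2 and Mn1 stand higher in Pax5KO than in WT engrafted cells on every array, Meis1, Hoxa9 and Mycn are highest in CLP, and Myb stays between 12.38 and 14.15 on all arrays.

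Lmo2 (chr2:103957903-103981878, GRCm38.p6) was the member whose level differed most clearly between the engrafted genotypes. Its single probe set read 10.67, 10.68 and 10.30 in Pax5KO engrafted cells, against 7.76, 8.02 and 7.44 in WT engrafted cells. Ly6D- CLP read 12.17 and 11.78, Ly6D+ CLP 10.10 and 10.38, ProB cells 6.79 and 7.06 and PreB cells 5.81 and 6.25. All 3 Pax5KO arrays lay above all 3 WT arrays and within or just above the range of Ly6D+ CLP, and each later stage of the untransplanted series lay below the earlier one without overlap. Lmo2 was 2.81 ± 0.20 (SE) higher in Pax5KO than in WT engrafted cells (limma adjusted p = 7.92e-05), and its adjusted p stayed between 1.83e-06 and 0.00997 in all 18 alternative analyses. It was 3.63 ± 0.22 higher in Pax5KO engrafted cells than in ProB cells (limma adjusted p = 7.61e-05). Against Ly6D+ CLP the difference was 0.31 ± 0.22, with a 95% confidence interval of -0.20 to 0.82, which did not pass the test (limma adjusted p = 0.735) and was 0.17 without Ly6D+ CLP array 1. Along the stages Lmo2 fell by 1.73 ± 0.24 in Ly6D+ relative to Ly6D- CLP (limma adjusted p = 0.0101) and by 3.32 ± 0.24 in ProB cells relative to Ly6D+ CLP (limma adjusted p = 0.000200). The PreB value was 0.89 ± 0.24 below that of ProB cells, which did not pass (limma adjusted p = 0.0507). This difference passed in 3 of 14 alternative analyses, namely quantile normalization (0.00919), equal array medians (0.0461) and averaged probe sets (0.0481). Lmo2 has a single probe set, so averaging left its own values unchanged.

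Lyl1 and Tal1 encode closely related bHLH factors that pair with E proteins. Lyl1 (chr8:84701423-84704716) read 10.92, 11.03 and 11.70 in Pax5KO engrafted cells, against 10.16, 9.75 and 10.87 in WT engrafted cells. Ly6D- CLP read 11.45 and 11.55, Ly6D+ CLP 10.97 and 11.01, ProB cells 8.59 and 9.39 and PreB cells 7.65 and 8.20. The engrafted genotypes met at the edge, with every Pax5KO array above every WT array but the lowest Pax5KO value only just above WT array 3, whereas all 3 Pax5KO arrays lay above both ProB arrays. The difference between genotypes was 0.95 ± 0.34 (SE; limma adjusted p = 0.188), which passed in 1 of 18 alternative analyses, with array weights (0.0173). It was 0.34 with a term for high Xist, which leaves WT array 3 as the only WT array compared. Lyl1 was 2.23 ± 0.38 higher in Pax5KO engrafted than in ProB cells (limma adjusted p = 0.0115). Against Ly6D+ CLP it differed by 0.22 ± 0.38 (limma adjusted p = 1), with the sign turning to -0.02 without Pax5KO array 3. Lyl1 fell by 2.0 ± 0.41 in ProB cells relative to Ly6D+ CLP (limma adjusted p = 0.0222), a call lost without Ly6D+ CLP array 1 (0.0573), Ly6D+ CLP array 2 (0.0733) or ProB array 1 (0.0814). The steps to Ly6D+ CLP (-0.51; limma adjusted p = 0.750) and to PreB cells (-1.07; limma adjusted p = 0.162) did not pass.

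Tal1 (chr4:115056426-115071755) was a low-signal gene. It read 4.50, 3.27 and 4.79 in Pax5KO engrafted cells, against 2.86, 2.83 and 2.83 in WT engrafted cells. Ly6D- CLP read 6.04 and 6.01, Ly6D+ CLP 5.25 and 5.39, ProB cells 2.83 and 2.32 and PreB cells 2.73 and 2.83. Tal1 was thus near the floor in WT engrafted, ProB and PreB cells, and all 3 Pax5KO arrays were above those groups and below both CLP groups. It fell by 2.74 ± 0.41 (SE) in ProB cells relative to Ly6D+ CLP (limma adjusted p = 0.00540). In Pax5KO engrafted cells it was 1.34 ± 0.34 above WT engrafted cells, which did not pass (limma adjusted p = 0.0555). Tal1 passed there in 3 of 17 alternative analyses and not in the other 14. The 3 were without Pax5KO array 2 (a difference of 1.80, limma adjusted p = 0.000581), without genes at the floor (0.0243) and with equal array medians (0.0441). Tal1 was 1.61 ± 0.38 above ProB cells (limma adjusted p = 0.0458). That call ended without Pax5KO array 1 (0.145) or Pax5KO array 3 (0.0899), and without either ProB array (differences of 1.86 without array 1 and 1.35 without array 2). It also ended with array weights (0.349), quantile normalization (0.0730) or single probe sets (0.0724). Against Ly6D+ CLP it was -1.13 (limma adjusted p = 0.251, and -0.68 without Pax5KO array 2), and the step from Ly6D- to Ly6D+ CLP was -0.71 (limma adjusted p = 0.543).

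Among the 7 genes that fell in ProB cells relative to Ly6D+ CLP were Tal1, Lyl1 and the MYC family gene Mycn. The bases just before a RefSeq start (GRCm38.p6) of each are shown, with matches to the motifs named next in capitals. The windows are chr4:115056176-115056425 (plus strand) for Tal1, chr8:84701207-84701422 (plus strand) for Lyl1 and chr12:12941837-12942086 (minus strand) for Mycn.
Tal1: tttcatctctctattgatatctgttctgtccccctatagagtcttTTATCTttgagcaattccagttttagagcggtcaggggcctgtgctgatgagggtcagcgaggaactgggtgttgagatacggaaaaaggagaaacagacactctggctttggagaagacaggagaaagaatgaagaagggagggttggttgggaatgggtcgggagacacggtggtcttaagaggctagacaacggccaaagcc
Lyl1: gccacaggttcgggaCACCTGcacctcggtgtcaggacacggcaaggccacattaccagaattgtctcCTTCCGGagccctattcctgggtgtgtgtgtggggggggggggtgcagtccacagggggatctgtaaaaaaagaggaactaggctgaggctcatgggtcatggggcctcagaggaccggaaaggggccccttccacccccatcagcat
Mycn: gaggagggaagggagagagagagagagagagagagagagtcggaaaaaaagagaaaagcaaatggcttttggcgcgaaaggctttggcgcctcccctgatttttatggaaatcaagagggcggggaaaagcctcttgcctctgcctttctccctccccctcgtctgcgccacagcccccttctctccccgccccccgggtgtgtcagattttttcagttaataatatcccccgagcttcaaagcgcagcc
The motifs searched on both strands in the 250 bases before each start were AGATAA (a site of GATA factors), CAGNTG (bHLH E-box), CACGTG (MYC E-box, a site that CAGNTG does not cover), CCGGAAG (ETS factors) and TGATTNAT (HOX with PBX). The Tal1 window shown holds 1 GATA match and the Lyl1 window an E-box and an ETS match, while the Mycn window holds none of the 5. A second Tal1 window (chr4:115057561-115057810) and the Myb window hold none of the 5 either, and the Meis1 window holds an ETS match. RefSeq promoters were found for 8 of the 10 genes, as 10 windows, and 1 of them held AGATAA, 2 held CAGNTG and 2 held CCGGAAG. Among 32851 mouse promoter windows of the same length the shares were 9.99% for AGATAA, 44.8% for CAGNTG and 6.91% for CCGGAAG. These are letter matches, not measured binding.

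Gata2 encodes a zinc finger factor of stem cells, progenitors and mast cells, and its level was higher in every WT than in every Pax5KO engrafted array on both of its probe sets. Its brighter probe set (gene at chr6:88193891-88207032) read 3.57, 3.92 and 4.05 in Pax5KO engrafted cells, against 5.10, 4.80 and 5.42 in WT engrafted cells. Ly6D- CLP read 4.05 and 4.34, Ly6D+ CLP 3.02 and 4.05, ProB cells 2.91 and 4.12 and PreB cells 4.38 and 3.96. The dimmer probe set read 2.32, 2.33 and 2.33 in Pax5KO engrafted cells, against 3.02, 3.98 and 2.96 in WT engrafted cells. On both, every WT engrafted array was also above every array of the CLP, ProB and PreB groups. The brighter probe set differed by -1.26 ± 0.37 (SE), which did not pass over all genes (limma adjusted p = 0.0981). The difference passed in 4 of 18 alternative analyses. These were averaged probe sets (0.00692), array weights (0.00380), no genes at the floor (0.0451) and no dim genes (0.0420). In the other 14 it did not pass, with a limma adjusted p of up to 0.307. The dimmer probe set differed by -0.99 ± 0.23, which did not pass over all probe sets (limma adjusted p = 0.0623). No stage step of Gata2 passed, and its value in ProB cells against Ly6D+ CLP (-0.02) turned sign without Ly6D+ CLP array 2 (0.50) or ProB array 1 (0.59). In Pax5KO engrafted cells it was 0.33 above ProB cells (limma adjusted p = 0.919) and 0.31 above Ly6D+ CLP (limma adjusted p = 1), neither of which passed.

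The list of mast cell and basophil transcripts had a higher mean log2 signal on every WT than on every Pax5KO engrafted array, as Gata2 did. Within the WT arrays 1, 2 and 3 that mean was 3.64, 3.90 and 4.44, an order that neither Gata2 probe set shared. Of the 9 genes measured on that list, 3 were above the floor in Pax5KO engrafted cells, against 6 in WT engrafted cells. Their summed linear signal was 101 to 172 in Pax5KO cells, against 228 to 635 in WT cells. Between the genotypes 3 of the 9 fell (Cpa3, Ms4a2 and Hdc) and 6 did not pass. Mcpt8, the brightest gene of the list in both engrafted groups, was among those 6. Cpa3, a mast cell protease at the floor in Pax5KO engrafted cells, was lower there than in WT engrafted cells, with a difference of -2.12 or more in size (limma adjusted p = 0.00462). Ms4a2, a subunit of the high-affinity IgE receptor, fell by 2.82 (limma adjusted p = 0.00210), and Hdc, the histamine-forming enzyme, fell by 1.88 (limma adjusted p = 0.000554). Mcpt4 and Tpsb2, proteases of mature mast cells, were at the floor on every array. The part of these cells in the Gata2 difference was not tested.

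**Figure D2:**
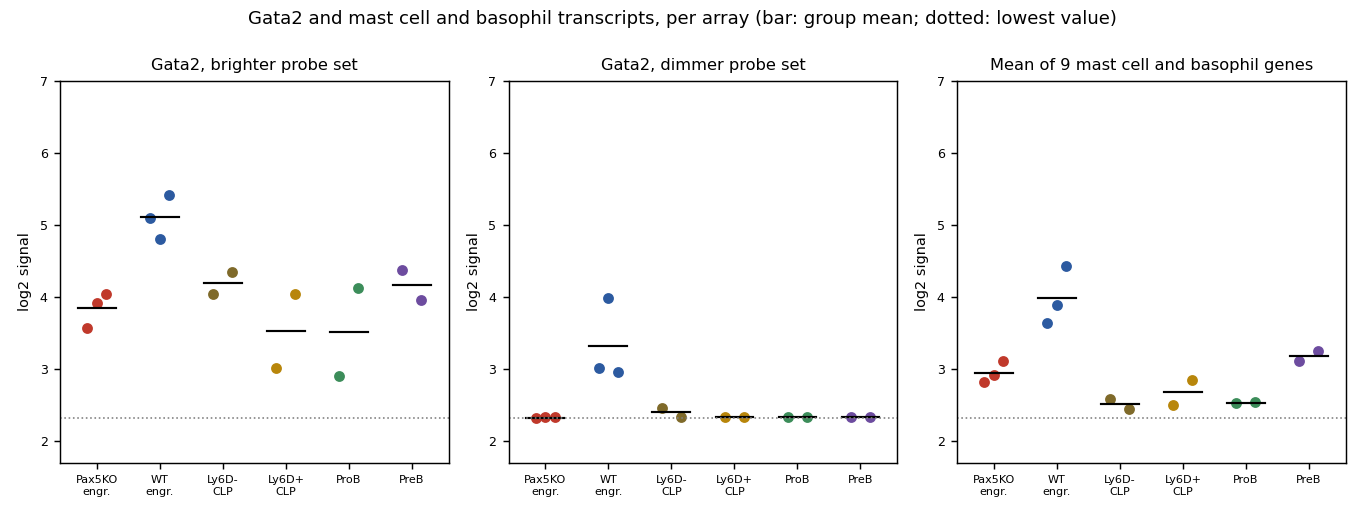
Log2 signal (y axis) of both Gata2 probe sets and the mean log2 signal of the 9 mast cell and basophil genes measured, on each array by group (x axis), with a bar at the group mean and a dotted line at the lowest value of the table. WT engrafted arrays are the highest of all groups in each panel, and the Pax5KO arrays lie below them without overlap.

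Mn1 (chr5:111417300-111457030) encodes a transcriptional cofactor whose overexpression drives myeloid leukaemia in mice. Its single probe set read 6.62, 5.35 and 5.51 in Pax5KO engrafted cells, against 2.32, 2.32 and 2.33 in WT engrafted cells. Ly6D- CLP read 10.34 and 10.27, Ly6D+ CLP 8.66 and 8.11, both ProB arrays 2.46 and PreB cells 2.32 and 2.46. Mn1 was therefore at the floor in WT engrafted, ProB and PreB cells, and the Pax5KO arrays stood apart from those groups at a level below both CLP groups, with no overlap on either side. It was at least 3.50 ± 0.29 (SE) higher in Pax5KO than in WT engrafted cells (limma adjusted p = 0.000205), with an adjusted p of 1.16e-05 to 0.0251 over 18 alternatives. It was at least 3.37 ± 0.33 higher in Pax5KO engrafted than in ProB cells (limma adjusted p = 0.000875) and fell by 2.56 ± 0.33 relative to Ly6D+ CLP (limma adjusted p = 0.00619). Along the stages it fell by at least 5.93 ± 0.36 in ProB cells relative to Ly6D+ CLP (limma adjusted p = 8.61e-05). The fall of 1.92 ± 0.36 in Ly6D+ relative to Ly6D- CLP (limma adjusted p = 0.0434) did not pass without Ly6D- CLP array 1 (0.0663), Ly6D- CLP array 2 (0.0654) or Ly6D+ CLP array 2 (0.117).

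Meis1 and Hoxa9 had their highest values in both CLP groups, above every array of the other groups, the Pax5KO engrafted cells included. Meis1 (chr11:18880428-19019651) encodes a homeodomain partner of HOX proteins. Its brightest probe set read 5.75, 4.86 and 4.49 in Pax5KO engrafted cells, against 3.67, 5.41 and 4.72 in WT engrafted cells. Ly6D- CLP read 11.48 and 10.45, Ly6D+ CLP 10.42 and 9.80, ProB cells 5.89 and 5.24 and PreB cells 6.21 and 6.24. The engrafted genotypes overlapped, and no array outside the CLP groups exceeded 6.24. Meis1 fell by 4.54 ± 0.62 (SE) in ProB cells relative to Ly6D+ CLP (limma adjusted p = 0.00340) and was 5.07 ± 0.57 lower in Pax5KO engrafted cells than in Ly6D+ CLP (-5.07; limma adjusted p = 0.00292). A second Meis1 probe set, 1443260_at, read 6.16 and 8.93 on the Ly6D- CLP arrays and 5.41 and 5.22 on those of Ly6D+ CLP, and was at the floor on all other arrays. It fell by at least 2.99 ± 0.68 in ProB cells relative to Ly6D+ CLP (limma adjusted p = 0.0477 over all probe sets). The third, 1459423_at, was near the floor throughout. Between genotypes the brightest probe set differed by 0.44 ± 0.51 (limma adjusted p = 0.989), with the sign turning to -0.03 without WT array 1. The steps to Ly6D+ CLP (-0.86; limma adjusted p = 0.680) and to PreB cells (0.66; limma adjusted p = 0.656) did not pass.

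Hoxa9 (chr6:52223097-52227370), the homeobox gene that acts with Meis1 in progenitors and in leukaemia, varied widely among engrafted arrays. It read 7.61, 5.16 and 3.88 in Pax5KO engrafted cells, against 5.59, 6.49 and 3.37 in WT engrafted cells. Ly6D- CLP read 12.83 and 12.79, Ly6D+ CLP 10.55 and 11.07, ProB cells 7.55 and 7.95 and PreB cells 5.39 and 5.45. The arrays numbered 3 were the lowest in both engrafted groups, and each later stage of the untransplanted series lay below the earlier one without overlap. The spread between engrafted arrays sets a large error in the shared fit, and no Hoxa9 difference passed. In Ly6D+ relative to Ly6D- CLP the value was -2.0 ± 1.21 (SE; limma adjusted p = 0.568), in ProB cells relative to Ly6D+ CLP -3.06 ± 1.21 (limma adjusted p = 0.220) and in PreB relative to ProB cells -2.33 (limma adjusted p = 0.287). Pax5KO engrafted cells were -5.27 ± 1.11 relative to Ly6D+ CLP (limma adjusted p = 0.0605). That difference passed in 5 of 15 alternative analyses. These were without Pax5KO array 1 (-6.30; 0.0209), quantile normalization (0.0434), either filter on low genes (0.0142 and 0.00701) and the replicate block (0.0347). Between genotypes the value was 0.40 ± 0.99 (limma adjusted p = 1), with the sign turning without Pax5KO array 1 (-0.63) or WT array 3 (-0.50). With a term for high Xist, which compares the Pax5KO arrays with WT array 3 alone, it was 2.18. The dimmer probe set, 1421579_at, read 3.68 on Ly6D- CLP array 1 and was at the floor otherwise.

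Mycn (chr12:12936093-12941836), the MYC family gene of embryonic and stem cells, was the member that fell at both early steps and rose at the last. It read 3.06, 3.09 and 3.42 in Pax5KO engrafted cells, against 3.34, 3.66 and 4.14 in WT engrafted cells. Ly6D- CLP read 7.84 and 8.56, Ly6D+ CLP 5.48 and 5.85, ProB cells 3.49 and 3.50 and PreB cells 5.16 and 5.36. Each Pax5KO array lay below the WT engrafted array of the same number although the ranges overlapped slightly, and PreB cells lay between ProB cells and Ly6D+ CLP. Mycn fell by 2.54 ± 0.30 (SE) in Ly6D+ relative to Ly6D- CLP (limma adjusted p = 0.00372) and by 2.17 ± 0.30 in ProB cells relative to Ly6D+ CLP (limma adjusted p = 0.00344). It was 1.76 ± 0.30 higher in PreB than in ProB cells (limma adjusted p = 0.00667). Pax5KO engrafted cells fell by 2.47 ± 0.27 relative to Ly6D+ CLP (limma adjusted p = 0.00272) and did not pass against ProB cells (-0.31; limma adjusted p = 0.732) or WT engrafted cells (-0.52 ± 0.24; limma adjusted p = 0.378). The other Mycn probe sets, 1425922_a_at and 1425923_at, were at the floor on every array.

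Myb (chr10:21124930-21160984), a factor that immature cells of most blood lineages need, had a high signal in every group. It read 13.67, 13.37 and 13.22 in Pax5KO engrafted cells, against 13.88, 13.63 and 13.29 in WT engrafted cells. Ly6D- CLP read 13.43 and 13.73, Ly6D+ CLP 13.75 and 14.15, ProB cells 12.38 and 12.91 and PreB cells 13.89 and 14.15. On this brightest probe set, 1421317_x_at, both ProB arrays lay below every other array, and the other groups overlapped. Myb fell by 1.31 ± 0.26 (SE) in ProB cells relative to Ly6D+ CLP (limma adjusted p = 0.0190) and was 1.38 ± 0.26 higher in PreB than in ProB cells (limma adjusted p = 0.0109). The first call ended without Ly6D+ CLP array 2 (0.0844) or ProB array 1 (0.0677) and with averaged probe sets (0.205), and the second without PreB array 3 (0.0618) and with averaged probe sets (0.188). The 2 dimmer probe sets differed by -1.55 and -1.56 in ProB cells relative to Ly6D+ CLP, which did not pass over all probe sets (limma adjusted p = 0.408 and 0.368). In PreB relative to ProB cells they differed by 1.65 and 1.15, which did not pass either (limma adjusted p = 0.351 and 0.422). On those 2, the arrays numbered 3 were the lowest in both engrafted groups. They read 7.18 and 9.38 in Pax5KO cells and 8.17 and 10.05 in WT cells. Pax5KO array 3 thus lay below both ProB arrays on each, at 7.73 and 7.82 (1422734_a_at) and 10.3 and 10.6 (1450194_a_at) in ProB cells. WT array 3 did so on 1450194_a_at only. The arrays numbered 3 also had the largest 3′ minus 5′ Gapdh signal, at 5.79 and 5.44. Pax5KO engrafted cells differed from WT engrafted cells by -0.18 ± 0.21 (limma adjusted p = 0.995), from ProB cells by 0.78 ± 0.24 (limma adjusted p = 0.121) and from Ly6D+ CLP by -0.53 (limma adjusted p = 0.422).

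Hlf (chr11:90336535-90390917) encodes a leucine zipper factor of stem cells and was measurable in CLP only. Ly6D- CLP read 4.35 and 4.92 on its brightest probe set and Ly6D+ CLP 4.05 and 2.33, and it was at the floor on the Pax5KO and WT engrafted, ProB and PreB arrays. The second probe set, 1434736_at, read 2.43 and 5.02 on the Ly6D- CLP arrays and 2.32 and 4.53 on those of Ly6D+ CLP. Both probe sets were higher on array 2 in Ly6D- CLP, but in Ly6D+ CLP they disagreed on which array was the higher. No Hlf difference passed (Ly6D+ relative to Ly6D- CLP -1.44, limma adjusted p = 0.219, and ProB relative to Ly6D+ CLP -0.87, limma adjusted p = 0.309). Both rest on which Ly6D+ CLP array is kept. The first was -2.30 without array 1 (0.000143) and -0.58 without array 2 (0.192), and the second was -0.01 without array 1 (1) and -1.73 without array 2 (0.000973). Pax5KO engrafted cells, at the floor, were -0.87 relative to Ly6D+ CLP (limma adjusted p = 0.423), with -0.01 without Ly6D+ CLP array 1 (1) and -1.73 without array 2 (0.000780).

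**Figure D3:**
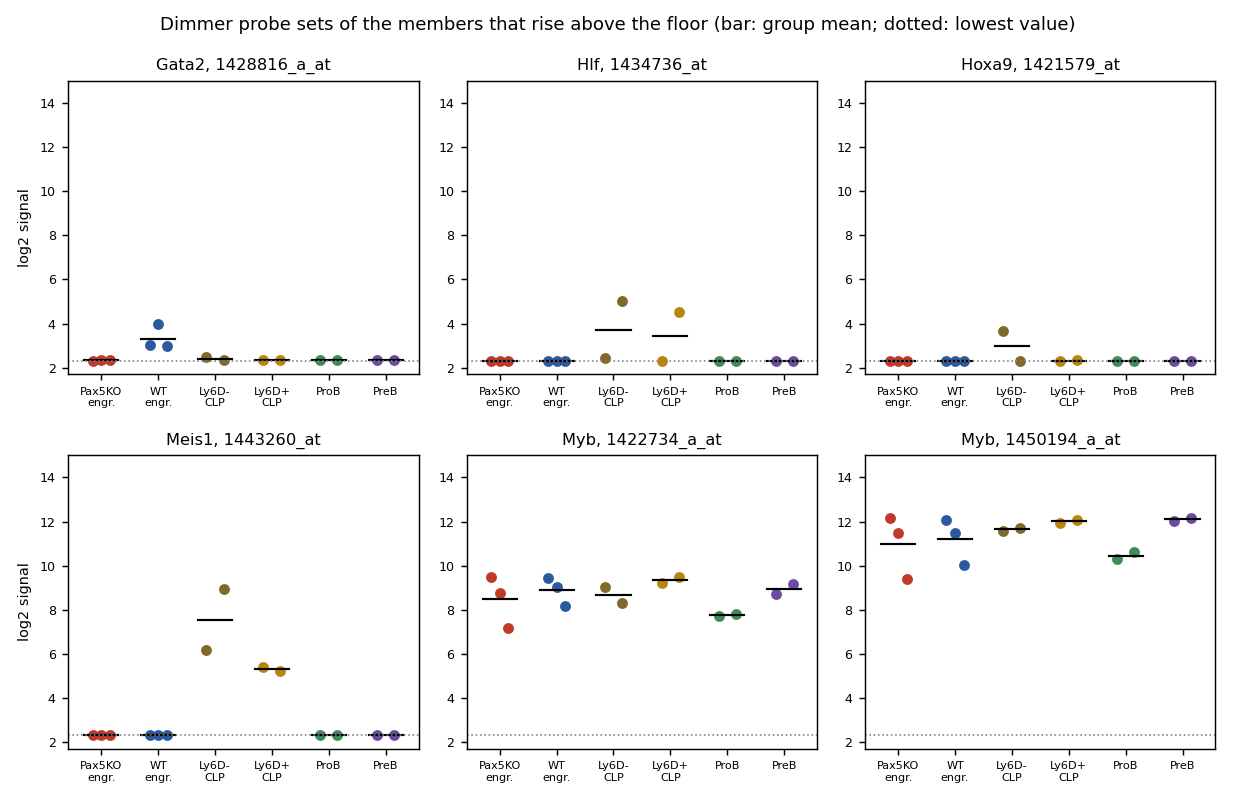
Log2 signal (y axis) of the dimmer probe sets of the 10 genes that rise above the floor, on each array by group (x axis), with a bar at the group mean and a dotted line at the lowest value of the table. Both dimmer Myb probe sets are lowest on the arrays numbered 3 within each engrafted group, and the second Meis1 probe set leaves the floor only in CLP.

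Set against the background of all genes, the share of the 10 genes that changed differed from step to step. Between Ly6D- and Ly6D+ CLP, 1.45% of all genes tested were called, 0.813% higher and 0.638% lower. Of the 10 genes, 3 fell (Lmo2, Mycn and Mn1), none rose and the median difference was -1.15. The granulocyte and monocyte list had a median difference of -2.64 at that step, with 1 of 13 fallen (Csf3r), and its part in the falls of the 3 members was not tested. Without Ly6D- CLP array 2, Lmo2 (-1.93; limma adjusted p = 0.00730) and Mycn (-2.18; 0.00568) passed and Mn1 did not (0.0654). In ProB cells relative to Ly6D+ CLP, 7.29% of genes were called (1.93% higher, 5.36% lower). Of the 10 genes, 7 fell (Mn1, Meis1, Lmo2, Tal1, Mycn, Lyl1 and Myb), with a median difference of -2.45. The granulocyte and monocyte list had a median of -0.10 there, with 1 of 13 fallen (Mpo) and only 6 above the floor in Ly6D+ CLP and 5 in ProB cells. Its summed linear signal was 2068 to 2772 in Ly6D+ CLP, against 141 to 153 in ProB cells. The part of these transcripts in the falls of the 7 members was not tested. In PreB relative to ProB cells, 11.5% were called (6.35% higher, 5.19% lower). Of the 10 genes, 2 rose (Mycn and Myb), none fell and the median was 0.10. The granulocyte and monocyte list had a median of 3.99 at that step, with 7 of 13 risen. The natural killer cell list had a median of 2.62, with 5 of 8 risen. The part of these lists, and of the high 3′ minus 5′ actin signal of PreB arrays, in the Mycn and Myb rises was not tested. When only the 4 arrays of a step were fitted, which leaves 2 residual degrees of freedom, no member passed at the first step or the second, and 1 (Mycn) did at the last. With array weights, 0 of the 3 calls at the first step and 3 of the 7 at the second held.

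**Figure D4:**
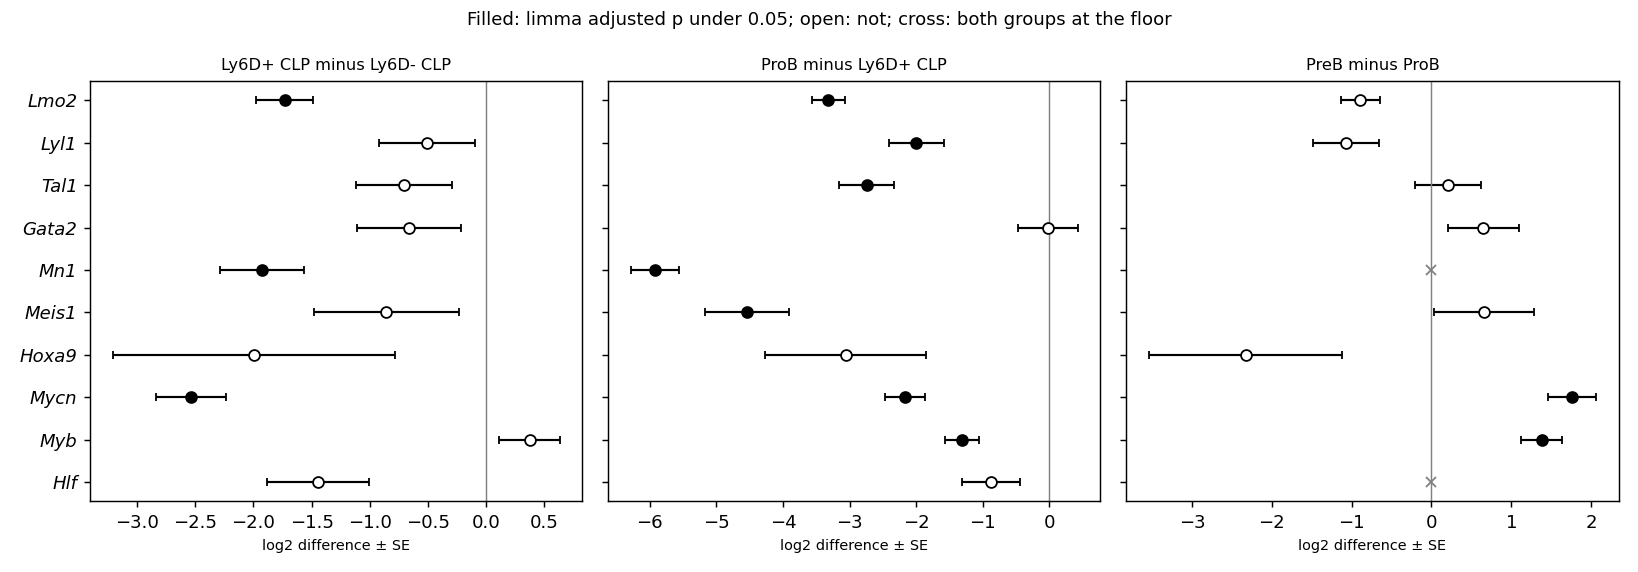
Difference in log2 signal (x axis, with its standard error) of each gene's brightest probe set (y axis) at the steps from Ly6D- CLP to Ly6D+ CLP, to ProB cells and to PreB cells, each later stage minus the earlier. Filled points passed at a limma adjusted p under 0.05, open points did not and crosses mark genes at the floor in both groups; 7 genes are filled to the left of 0 in the middle panel.

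In Pax5KO relative to WT engrafted cells, 5.94% of all genes tested were called, 3.64% higher and 2.29% lower. Of the 10 genes, 2 rose (Lmo2 and Mn1), none fell and the median difference was 0.42. Xist was high on all 3 Pax5KO arrays and 1 of 3 WT arrays. A term for high Xist therefore sets the Pax5KO arrays against WT array 3 alone. With it, Lmo2 differed by 3.11 and Mn1 by 3.50, and the part of sex in these differences was not tested. The 3′ minus 5′ signals that were higher in Pax5KO cells at each array number are given above, and their part in these differences was not tested. In Pax5KO engrafted relative to ProB cells, 5.24% were called (4.22% higher, 1.02% lower), and 4 of the 10 rose (Lmo2, Mn1, Lyl1 and Tal1), with a median difference of 0.55. Relative to Ly6D+ CLP, 1.81% were called (0.781% higher, 1.03% lower), and 3 of the 10 fell (Mycn, Meis1 and Mn1), with a median of -1.0. These 3 comparisons share the Pax5KO arrays, so they are set side by side and not counted as separate evidence. When only the arrays of the 2 groups were fitted, the count of the 10 called was 2 against WT engrafted cells, 1 against ProB cells and 0 against Ly6D+ CLP, where array weights left 1.

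**Figure D5:**
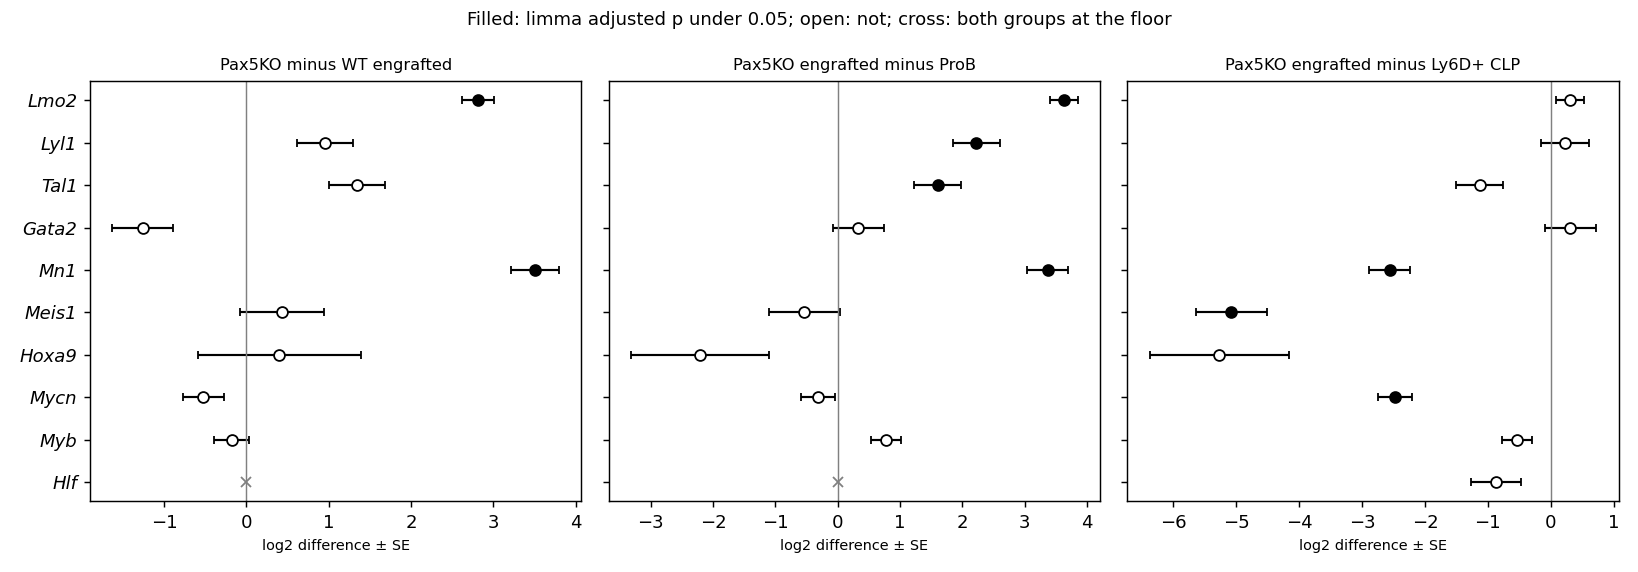
Difference in log2 signal (x axis, with its standard error) of each gene's brightest probe set (y axis) in Pax5KO engrafted cells minus WT engrafted cells, minus ProB cells and minus Ly6D+ CLP. Filled points passed at a limma adjusted p under 0.05, open points did not and crosses mark genes at the floor in both groups; Lmo2 is filled to the right of 0 in the first 2 panels and open near 0 in the third.

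The genes listed around Lmo2, Tal1 and Lyl1 moved in both directions. Beside partners of these factors, the list holds other LIM-only genes and the E protein inhibitors Id1, Id2 and Id3. Of 17 listed genes measured, Ssbp2 and Id2 rose in Pax5KO relative to WT engrafted cells. Ssbp2, a stabiliser of the Lmo2 complex, rose by 1.28 ± 0.27 (SE; limma adjusted p = 0.0251). Id2, an inhibitor of E proteins, rose by 1.85 ± 0.37 (limma adjusted p = 0.0221). The LIM-only gene Lmo4 fell by 3.70 ± 0.46 and the inhibitor Id3 by 3.71 ± 0.26 (limma adjusted p = 0.00189 and 7.92e-05). The other 13 did not pass. In ProB cells relative to Ly6D+ CLP, 4 of the 17 fell (Ssbp2, Cbfa2t3, Gata1 and Id2) and 1 rose (Id3). In PreB relative to ProB cells 4 rose, among them Id2, which was at 12.45 in PreB cells, against 4.49 in ProB cells (a difference of 7.96 ± 0.46, limma adjusted p = 2.37e-05), and the ETS gene Erg fell by 3.99 ± 0.84 (limma adjusted p = 0.0170). At the CLP step Gata1 was at least 1.42 ± 0.25 higher in Ly6D+ than in Ly6D- CLP (limma adjusted p = 0.0334), where Ly6D- CLP was at the floor. Pax5KO engrafted cells had 3 of the listed genes higher than in ProB cells (Cbfa2t3, Runx1 and Id2) and 1 lower (Id3). Id2 differed there by 3.74 ± 0.42 (limma adjusted p = 0.00174). Relative to Ly6D+ CLP, 1 of the listed genes was lower (Gata1). Natural killer and granulocyte transcripts were also high on PreB arrays, as given above, and their part in the Id2 value was not tested.

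Of 18 HOX, PBX and MEIS genes measured beside Hoxa9 and Meis1, 6 were at the floor on every array. Pbx3, a homeodomain partner at the floor in Pax5KO engrafted cells, fell by at least 2.38 ± 0.31 (SE) in Pax5KO relative to WT engrafted cells (limma adjusted p = 0.00258) and rose in PreB relative to ProB cells. No other gene of the list passed in any of the 6 comparisons, the ProB step included. Of 10 MYC network genes, Myc itself rose by 2.92 ± 0.36 in Pax5KO relative to WT engrafted cells (limma adjusted p = 0.00177) while the other 9 did not pass. Myc, Mycl and the MYC antagonist Mxd4 fell in ProB cells relative to Ly6D+ CLP. In PreB relative to ProB cells, in which Mycn rose, Myc fell and Max, Mxd1 and Mxd4 rose. Myc and Mxd4 were higher in Pax5KO engrafted than in ProB cells, and Mycl was lower than in Ly6D+ CLP.

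Among 25 other progenitor regulators, most of them transcription factors, 2 rose and 2 fell in Pax5KO relative to WT engrafted cells. Etv6, an ETS repressor needed by adult stem cells, rose by 2.75 ± 0.25 (SE; limma adjusted p = 0.000321), and Nfe2, a leucine zipper factor of megakaryocytes, by 2.28 ± 0.45 (limma adjusted p = 0.0190). Trib2, a pseudokinase scaffold gene, was at the floor in Pax5KO engrafted cells at 2.57, against 9.36 in WT engrafted cells, so it fell by at least 6.79 ± 0.47 (limma adjusted p = 7.58e-05). Gfi1b, a repressor of erythroid and megakaryocyte progenitors, fell by 1.78 ± 0.43 (limma adjusted p = 0.0464). In Pax5KO engrafted relative to ProB cells 4 of the 25 were higher (Etv6, Sox4, Nfe2 and Spi1) and 2 lower (Gfi1 and Trib2), and Trib2 fell by at least 3.52 ± 0.53 (limma adjusted p = 0.00652). Trib2 rose by 4.32 ± 0.58 in PreB relative to ProB cells (limma adjusted p = 0.00218). At the CLP step Ebf1, the early B lineage factor, was 5.64 ± 0.50 higher in Ly6D+ than in Ly6D- CLP (limma adjusted p = 0.000888), and Ikzf2, of the Ikaros family, fell by 3.26 ± 0.26 (limma adjusted p = 0.000501). Ikzf2 was at least 3.88 ± 0.26 higher in PreB than in ProB cells, where it was at the floor (limma adjusted p = 6.17e-05), on the PreB arrays that also carried those transcripts. In ProB cells relative to Ly6D+ CLP 7 of the 25 fell and 1 rose (Trib2), and Nfe2 fell by 5.05 ± 0.55 (limma adjusted p = 0.00112). Relative to Ly6D+ CLP, 1 of the 25 was higher in Pax5KO engrafted cells and 2 were lower (Hmga2 and Gfi1), with Zfpm1, a GATA cofactor gene, 2.94 ± 0.55 higher (limma adjusted p = 0.0356) and Hmga2 lower, by at least 3.08 ± 0.47 (a difference of -3.08; limma adjusted p = 0.0147).

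Of 11 stem and multipotent progenitor surface and signalling genes, 4 rose in Pax5KO relative to WT engrafted cells and none fell. Flt3, the cytokine receptor of multipotent and lymphoid progenitors, was at 9.46 in Pax5KO engrafted cells, against 3.56 in WT engrafted cells, a difference of 5.90 ± 0.33 (SE; limma adjusted p = 2.23e-05). Egfl7 differed by 4.68 ± 0.36 (limma adjusted p = 0.000122), Cd27 by 3.99 ± 0.28 (limma adjusted p = 7.58e-05) and Kit, the stem cell factor receptor, by 3.04 ± 0.65 (limma adjusted p = 0.0279). Cd34, a surface glycoprotein of progenitors, was at the floor in Pax5KO engrafted cells at 2.32, against 10.07 in Ly6D+ CLP, a fall by at least 7.75 ± 0.28 (limma adjusted p = 3.73e-06). Flt3 in Pax5KO engrafted cells was 3.89 ± 0.37 above ProB cells (limma adjusted p = 0.000786) and fell by 2.66 ± 0.37 relative to Ly6D+ CLP (limma adjusted p = 0.00917), and Cd27 was 3.60 ± 0.31 above ProB cells (limma adjusted p = 0.000497). In ProB cells relative to Ly6D+ CLP 5 of the 11 fell, Cd34 by at least 7.75 ± 0.31, Flt3 by 6.55 ± 0.40 and Cd27 by 5.95 ± 0.34 (limma adjusted p = 6.91e-06, 9.12e-05 and 7.24e-05). Cd34 had already fallen by 1.74 ± 0.31 in Ly6D+ relative to Ly6D- CLP (limma adjusted p = 0.0327).

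The genes whose pattern over the 14 arrays was most like those of the 3 members with the widest range of group means were sought among 4266 genes whose group means spanned at least 2. Mn1 was followed most closely by Gramd1b (Pearson r = 0.985), Cd27 (0.980) and Tspan3 (0.973), and among the 10 genes by Tal1 (0.971) and Lmo2 (0.911). Hoxa9 was followed by Bcl2 (0.965), Adgrl4 (0.924) and Slco3a1 (0.921), and Meis1 by Gpr160 (0.966), Slco3a1 (0.964) and AA467197 (0.964). The Pearson r between Hoxa9 and Meis1 was 0.913, while that between Meis1 and Lyl1 was 0.336. These values describe arrays that share 6 group means and carry no test.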

How the data were processed

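Per the labels, total RNA was labelled and hybridised to Affymetrix 3′ arrays, and the authors deposited 1 table of log2 signals. RMA, GCRMA and limma are named in the submitters' processing notes, with no role, order or version, and which of them made the table is not given in the sources used here; the lowest value, 2.32, is shared by many probe sets. The values were used as deposited. Of 45101 probe sets, 34945 carried 1 gene symbol, 932 several and 9160 none, and 64 were control probe sets; only those with 1 symbol were named, and the brightest probe set stood for each of 18193 genes. Levels near the lowest value limit the precision, as does the number of arrays (3 or 2 a group).

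A linear model with 1 mean per group was fitted to all 14 arrays (8 residual degrees of freedom) with lmFit and eBayes of limma 3.58.1 in R 4.3.3, with Benjamini-Hochberg adjustment over all genes and a threshold of 0.05. The script was tested on simulated data. Nothing states that replicates came from separate animals beyond the word biological, so p-values measure the spread between these samples. The members and lists were chosen with earlier results of these data known. By rule, all 10 members, the 4 called list genes with the largest change per comparison and the 3 nearest patterns were named. Ssbp2, Id2, Id3, Lmo4, Pbx3, Myc, Etv6, Nfe2, Gfi1b and Kit in the knockout comparison were given after their values were seen. The same holds for Cpa3, Mcpt8, Ms4a2 and Hdc.

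Same-numbered Pax5KO and WT engrafted arrays deviated together from their group means (correlations of 0.131, 0.301 and 0.538 over genes). Pax5KO array 1 correlated more with WT array 2 (0.379), and the clearest split was arrays 3 against the others (-0.225 to -0.481). The main fit holds no pairing, and these numbers were used as pairs only in the replicate block named below. Between the other groups the correlations of same-numbered arrays ranged from -0.04 to 0.08. Alternatives were single or averaged probe sets, only the 2 groups' arrays, array weights, equal medians, quantile normalization, 2 filters on low genes, a trend with robust variances, a replicate block on the numbers of the descriptions, a term for Xist and each array left out. The term for Xist leaves WT array 3 as the only WT engrafted array set against the Pax5KO arrays.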

Additional observations from a re-analysis of the deposited data

How the results depend on the processing

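Of 830 recomputed differences of single members, 750 kept their direction and side of the threshold, 46 lost the threshold, 22 gained it and 12 changed sign, none of the last a call. Those 12 were Meis1 (-0.0306 to 0.840 with 1 array left out, lowest without WT array 1), Hoxa9 (-0.633 to 1.23, below 0 without Pax5KO array 1 and, at -0.495, without WT array 3) and Myb (0.128 with a term for high Xist) in Pax5KO against WT engrafted cells; Gata2 in ProB cells against Ly6D+ CLP (0.245 under quantile normalization, -0.624 to 0.591 with 1 array left out, above 0 without ProB array 1 and, at 0.497, without Ly6D+ CLP array 2); Tal1 in PreB against ProB cells (-0.0517 without ProB array 2, and up to 0.459); Gata2 in Pax5KO engrafted against ProB cells (-0.0254 under quantile normalization, -0.279 without ProB array 1, and up to 0.936); and, against Ly6D+ CLP, Gata2 (-0.201 without Ly6D+ CLP array 1, and up to 0.826) and Lyl1 (-0.0152 without Pax5KO array 3, and up to 0.370). The cause was not tested.

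Averaging the probe sets, dim ones included, accounted for all 6 called differences that moved by over 1.5 times (of Mycn and Meis1), and each still passed; of differences that did not pass, 29 moved by that much in 82 recomputations. In Pax5KO against WT engrafted cells 1080 genes were called, with 697 from the arrays of those 2 groups alone, 3065 with array weights and 676 to 1034 when 1 array was left out; of the 10 members 2 were called, with 4 under array weights and 4 without genes at the floor (2 to 3 with 1 array left out). Between CLP groups 264 genes were called, with 545 when every probe set was tested singly, 1 from the 4 arrays alone, 102 with array weights, 169 with the replicate block and 694 to 1144 when 1 array was left out; members called were 3, with 0 from the 4 arrays alone, 0 with array weights and 2 to 4 when 1 array was left out. In ProB cells against Ly6D+ CLP 1327 genes were called, with 3 from the 4 arrays alone, 368 with array weights and 1060 to 2129 when 1 array was left out; members called were 7, with 0, 3 and 5 to 7 in the same order. In PreB against ProB cells 2100 genes were called, with 3292 probe sets when tested singly, 487 from the 4 arrays alone and 1491 to 2695 when 1 array was left out; members called were 2, with 1 from the 4 arrays alone and 1 to 2 when 1 was left out. In Pax5KO engrafted against ProB cells 953 genes were called, with 191 from those arrays alone and 565 to 1883 when 1 was left out; members called were 4, with 1 from those arrays alone and 3 to 4. Against Ly6D+ CLP 330 genes were called, with 56 from those arrays alone, 174 with array weights and 199 to 1247 when 1 was left out; members called were 3, with 0, 1 and 3 to 4, and 5 with the replicate block. With the replicate block, which counts as a pairing only between the engrafted groups, no member call changed in Pax5KO against WT engrafted cells; elsewhere Mn1 between CLP groups (limma adjusted p = 0.0951) and Tal1 in Pax5KO engrafted against ProB cells (0.0695) no longer passed, and Lyl1 at the step to PreB cells (0.0418), Myb in Pax5KO engrafted against ProB cells (0.00742) and Hoxa9 (0.0347) and Myb (0.0398) against Ly6D+ CLP did. A fit to the 4 arrays of a step has 2 residual degrees of freedom and a lone array left in a group was assumed to vary like the other groups. The depth of an array limits values near 2.32, where differences are lower bounds.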
